A study of Sus scrofa with 20 samples.

Results

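The genes described here are hydroxysteroid dehydrogenases, steroid 5-alpha-reductases and steroid sulfatase, enzymes that change steroid hormones by 1 chemical step at a time. They were chosen by symbol and matched to pig Ensembl gene identifiers, and 10 symbols were listed. Of these, 8 had an identifier and 7 had a row among the 31907 genes of the count table, namely HSD11B1, HSD11B2, HSD17B2, HSD17B4, HSD17B11, SRD5A1 and SRD5A2. All 7 were among the 16275 genes that passed the filter on low counts. HSD17B13 has an identifier that matched no row, no identifier was found for SRD5A3 or STS, and these 3 genes were not analysed here.

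The samples came from Nanchukmacdon pigs, a crossbred Korean line, and were taken from backfat, the fat layer under the skin of the back, and from liver. The labels describe every sample as WT, with a disease state of Normal and an age of 22 months, and the study's methods describe the animals as 5 boars and give another average age. Poly(A) RNA was sequenced from both tissues, with 5 libraries from each tissue, or 10 altogether. A further 10 samples of whole-genome bisulfite sequencing carry no genomic position in the processed data and were not used here. The labels name no treatment, and the contrast was between whole tissues, each of which holds several cell types. Libraries are named by tissue and by the boar number in their column names.

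Steroid hormones are switched on and off inside the tissues that receive them. Enzymes of the 11-beta group convert between active cortisol and inactive cortisone, those of the 17-beta group act on androgens and estrogens or on fatty acids, and the 5-alpha-reductases turn testosterone into the more potent dihydrotestosterone. In boars, the testicular steroid androstenone is stored in fat and cleared by the liver, and it gives meat from uncastrated males its taint.

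Total counts ran from 45157114 to 61772737 in backfat and from 43820042 to 53768601 in liver. The 10 hepatocyte markers summed to between 33963 and 133059 CPM in liver, where CPM are counts scaled to a common library size with TMM (trimmed mean of M-values) factors, and the 8 adipocyte markers to between 10280 and 14742 CPM in backfat, which fits both labels. A pair of libraries stood apart. Liver of boar 67 had the lowest hepatocyte sum and the highest share of mitochondrial counts, 44.5%, and backfat of boar 69 had the highest hepatocyte sum of its tissue, 619 CPM against 178 CPM in the lowest library. Values of the members in these libraries are given beside each result.

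Members moved in both directions. SRD5A1, SRD5A2 and HSD11B2 were higher in backfat, and HSD11B1, HSD17B2 and HSD17B11 were higher in liver, each past both thresholds used throughout, an adjusted p of 0.05 or less in edgeR's quasi-likelihood test and a difference of 4-fold or more, which is 2 on the log2 scale. That is 3 of 7 members in each direction, where 11.1% of all genes tested passed as higher in backfat and 11.2% as higher in liver. HSD17B4 did not pass. In either direction that is 6 of 7 members and 22.3% of all genes. By the adjusted p alone the count was again 3 in each direction, against 28% of all genes higher in backfat and 27% higher in liver, or 55% in all. The libraries of the tissues did not overlap for the same 6 genes, as was the case for 42.6% of all genes tested, 22.9% with backfat above liver and 19.7% with liver above backfat. In bulk tissue, fewer cells of a type and less RNA per cell cannot be told apart. The median log2 fold change of the 7 members was -0.76, against 0.00 for all genes.

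**Figure D1:**
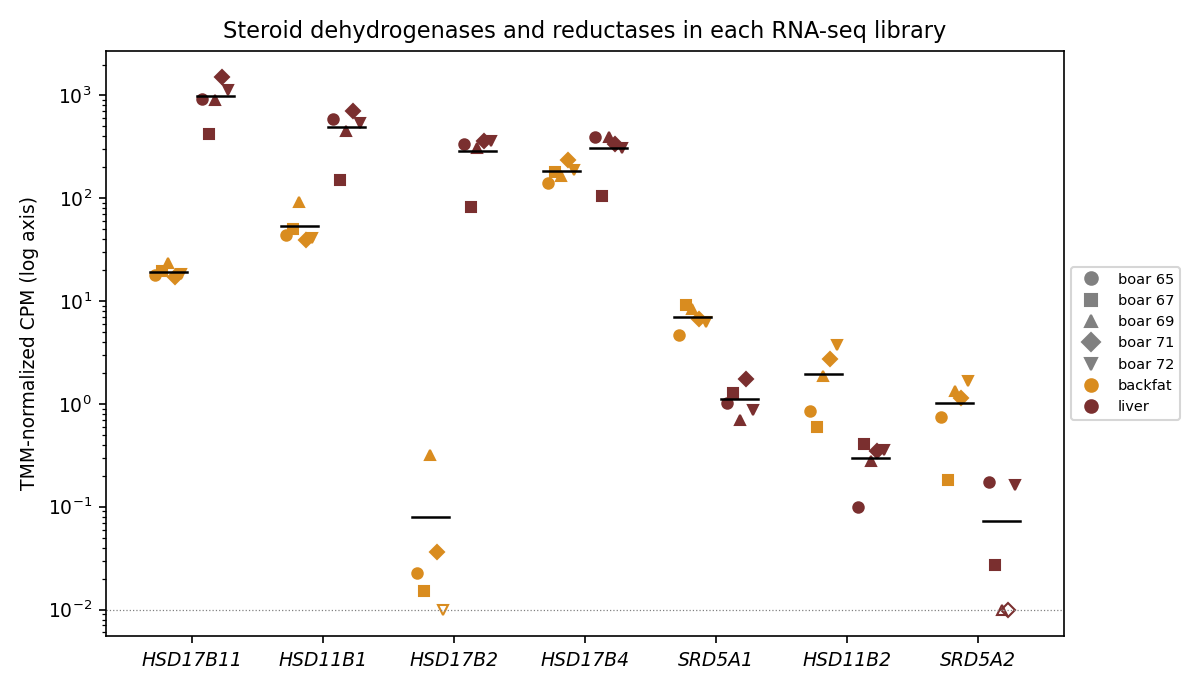
TMM-normalized CPM (log axis) of the 7 members in each library, with backfat in orange, liver in dark red, a symbol for each boar and a bar at the mean of each tissue; open symbols on the dotted line mark libraries with 0 counts. The tissues overlap for HSD17B4 only, and liver of boar 67 is the lowest liver library for the 4 genes on the left.

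The glucocorticoid pair was described first. HSD11B1 mainly regenerates cortisol from cortisone, and HSD11B2 mainly carries out the opposite, inactivating step. HSD11B1 lies on the minus strand at chr9:133231451-133278396 of Sscrofa11.1, and HSD11B2 on the plus strand at chr6:28084087-28089256. The 200 bases before the RefSeq start of each gene are shown because they differ in the CpG dinucleotides that carry DNA methylation, with every CpG in capitals.
HSD11B1: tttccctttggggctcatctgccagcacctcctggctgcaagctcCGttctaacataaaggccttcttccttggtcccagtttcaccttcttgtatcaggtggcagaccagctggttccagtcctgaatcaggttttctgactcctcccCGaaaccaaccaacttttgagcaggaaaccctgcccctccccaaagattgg
HSD11B2: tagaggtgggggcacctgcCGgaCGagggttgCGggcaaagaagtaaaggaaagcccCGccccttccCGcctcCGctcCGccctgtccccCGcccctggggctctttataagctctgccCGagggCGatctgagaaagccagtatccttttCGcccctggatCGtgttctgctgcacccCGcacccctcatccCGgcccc
The first run is chr9:133278397-133278596 on the minus strand, with 2 CpGs. The second is chr6:28083887-28084086 on the plus strand, with 14 CpGs. Over the 300-base windows from 250 bases before the start to 50 after it, HSD11B1 had 3 CpGs and HSD11B2 had 21, and the median of 19556 protein-coding windows was 16.

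HSD11B1 was at 44.0, 50.8, 91.4, 38.9 and 41.5 CPM in backfat of boars 65, 67, 69, 71 and 72, and at 592, 150, 449, 712 and 544 CPM in liver of the same boars. Backfat of boar 69 was the highest of its tissue and liver of boar 67 the lowest, and every liver library lay above every backfat library. The means were 53.3 ± 21.7 CPM in backfat and 489 ± 212 CPM in liver (SD, n = 5 each). The log2 fold change, backfat minus liver, was -3.20 with a standard error (SE) of 0.41 and an adjusted p of 2.9e-05 in edgeR's quasi-likelihood test.

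HSD11B2 showed the opposite direction at a level of few counts. It was at 0.846, 0.595, 1.87, 2.76 and 3.74 CPM in backfat of boars 65, 67, 69, 71 and 72, and at 0.0997, 0.405, 0.276, 0.348 and 0.353 CPM in liver. Liver rested on 56 counts over 5 libraries and backfat on 596. The backfat values ran over a wide range, with boars 65 and 67 low and boar 72 high, but none of them fell to the liver values. The log2 fold change was 2.72 (SE 0.56), with an adjusted p of 0.00127 in edgeR's quasi-likelihood test and of 0.187 when edgeR's glmTreat tested against the 4-fold threshold itself.

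The balance of the pair was compared within each library as a ratio of levels per kilobase, since both genes were then read at the same depth. The FPKM of HSD11B1 exceeded that of HSD11B2 by 13.2 to 101 times in backfat, with a median of 58.2, and by 440 to 7065 times in liver, with a median of 1933. HSD11B1 was thus the more abundant transcript of the pair in all 10 libraries, and the ranges of the ratio in the tissues did not overlap. The ratio in liver depends on counts of HSD11B2 that were as low as 4 in 1 library.

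H6PD, which supplies the NADPH that HSD11B1 uses inside the endoplasmic reticulum, was at 59.6 ± 10.7 CPM in backfat and 138 ± 14.5 CPM in liver. Its log2 fold change was -1.21 (SE 0.17, adjusted p 5.68e-05 in edgeR's quasi-likelihood test), so it was higher in liver by less than the 4-fold threshold. Among the 4 genes listed for cofactor supply, SLC37A4, the glucose-6-phosphate carrier of that compartment, and G6PC1, the glucose-6-phosphatase that uses the same substrate, passed both thresholds as higher in liver, at log2 fold changes of -4.20 and -12.87. No gene of that list passed as higher in backfat. Among all genes tested, 11.2% passed as higher in liver and 11.1% as higher in backfat. Without backfat of boar 69, G6PC1 was at -14.79.

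The 17-beta group held the largest difference. HSD17B2, which inactivates testosterone and estradiol, lies on the minus strand at chr6:6296429-6360434. The 200 bases before its RefSeq start, chr6:6360435-6360634 on the minus strand, are shown with CpGs in capitals because this is the promoter of the gene with the largest difference among the members.
HSD17B2: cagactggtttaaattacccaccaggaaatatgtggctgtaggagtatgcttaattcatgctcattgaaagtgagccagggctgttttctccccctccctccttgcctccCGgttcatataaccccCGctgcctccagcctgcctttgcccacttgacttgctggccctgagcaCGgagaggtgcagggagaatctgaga
They hold 3 CpGs, and the 300-base window holds 5.

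HSD17B2 was at 338, 82.3, 310, 359 and 358 CPM in liver of boars 65, 67, 69, 71 and 72. In backfat it was at 0.0226, 0.0153, 0.320, 0.0360 and 0 CPM, from 2, 1, 19, 2 and 0 counts. A count of 0 allows up to 3 counts in that library, so a low level there was not detectable at this depth. The means were 0.0787 ± 0.135 CPM in backfat and 289 ± 117 CPM in liver, with a log2 fold change of -11.86 (SE 0.90) and an adjusted p of 3.24e-07 in edgeR's quasi-likelihood test.

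Most of the backfat counts of HSD17B2 came from boar 69, whose library also had the highest hepatocyte sum of its tissue. HSD17B2 in that library was at 0.0946% of the median liver level, and the hepatocyte sum at 0.492%. In backfat that sum was mostly APOA1, at 167 to 482 CPM where the sums ran from 178 to 619 CPM. The liver transcripts SERPINA6, G6PC1 and TAT were likewise highest in backfat of boar 69 among the backfat libraries, at 0.404, 0.387 and 0.269 CPM. These values were 0.122%, 0.0625% and 0.0383% of their median liver levels. The part of hepatocyte RNA in this value was not tested. Without that library the log2 fold change of HSD17B2 was -13.74, and with it the gene was called in the same direction.

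HSD17B11 is an enzyme of lipid droplets and the endoplasmic reticulum that acts on androgens such as androstanediol. It was at 17.9, 19.5, 23.4, 17.0 and 18.4 CPM in backfat of boars 65, 67, 69, 71 and 72, and at 929, 425, 907, 1500 and 1135 CPM in liver. The backfat libraries were close to each other, and the liver libraries spread by 3 to 4 times between boars 67 and 71. The log2 fold change was -5.67 (SE 0.37, adjusted p 9.08e-08 in edgeR's quasi-likelihood test), which is 50.9-fold.

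The identity of the HSD17B11 row is uncertain. Its exons in the count table add up to 8611 bases, against 3470 bases for the RefSeq gene at chr8:131472582-131541113, which is 2.48 times as long. HSD17B13, a lipid droplet protein of hepatocytes, follows on the same strand at chr8:131555517-131570067, 14403 bases further on, and has no row of its own. Counts of HSD17B13 within the HSD17B11 row cannot be told apart from those of HSD17B11 in these data, so the liver value belongs to the row and not with certainty to HSD17B11. A row longer than the RefSeq gene was not particular to HSD17B11. The HSD17B2 row had 2766 bases against 1167 in RefSeq, which is 2.37 times as long.

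HSD17B4, the peroxisomal multifunctional enzyme of fatty acid and bile acid chain shortening, differed least. It was at 140, 181, 166, 236 and 190 CPM in backfat of boars 65, 67, 69, 71 and 72, and at 394, 105, 397, 338 and 308 CPM in liver. It was higher in liver in 4 of 5 boars, and the exception was boar 67, whose liver library was below all backfat libraries. The log2 fold change was -0.76 (SE 0.32) with an adjusted p of 0.0591 in edgeR's quasi-likelihood test. Without liver of boar 67 it was -1.01 with an adjusted p of 0.000857, still under the 4-fold threshold. On all libraries the adjusted p was 0.0403 by DESeq2, 0.123 by limma-voom and 0.132 with the boar as a block in edgeR, and the log2 fold change without TMM factors (library size alone) was -0.086 with an adjusted p of 0.836.

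Liver of boar 67 was the lowest liver library for HSD11B1, HSD17B2, HSD17B11 and HSD17B4. Against the median of the liver libraries it was at a log2 ratio of -1.86 for HSD11B1, -1.13 for HSD17B11, -1.68 for HSD17B4 and -2.04 for HSD17B2, while SRD5A1 was at 0.31. The hepatocyte sum of that library was 27.0% of the median liver value, and its red cell and skeletal muscle sums were the highest in liver, at 1778 and 180 CPM. Its fibroblast and stroma, macrophage and lymphocyte sums were also the highest in liver, at 1152, 395 and 52.2 CPM. The endothelium sum was at the liver median, 156 CPM. Other liver transcripts varied in that library. SERPINA6 was at 13.99% of its liver median and AKR1D1, HSD17B6 and SLCO2B1 at log2 ratios of -2.27, -2.07 and -1.82, while TAT was at 108%, G6PC1 at 100% and SULT2A1 at a log2 ratio of 0.81. The part of cell make-up or of mitochondrial counts in these values was not tested. The calls of the members were the same without that library.

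**Figure D2:**
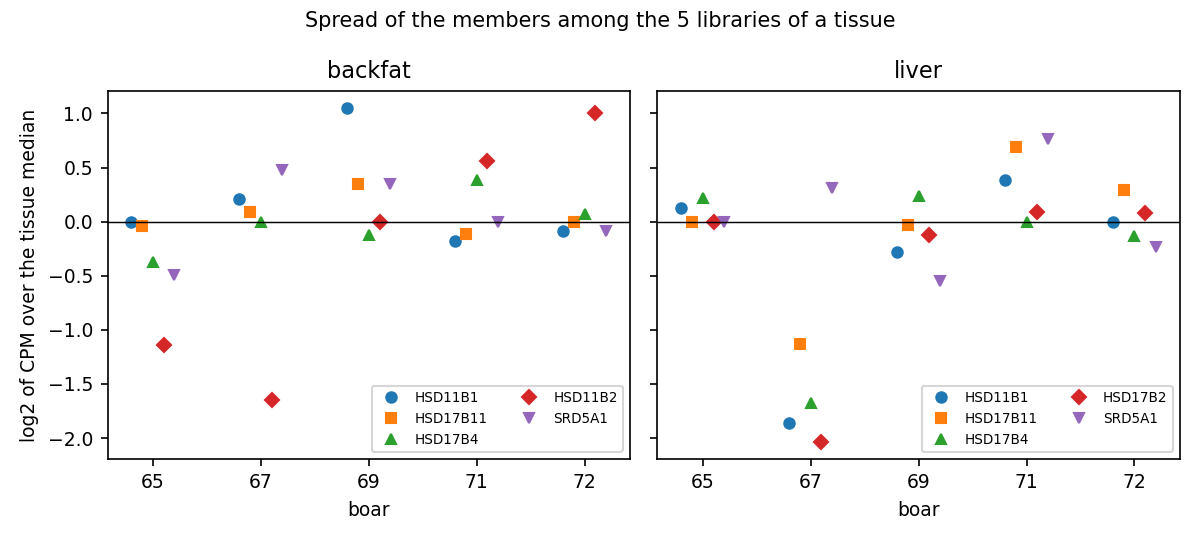
The log2 ratio of CPM to the tissue median by boar, for HSD11B1, HSD17B11, HSD17B4 and SRD5A1 in both tissues, HSD11B2 in backfat (left) and HSD17B2 in liver (right), with a line at the median. In liver, boar 67 lies between -2.04 and -1.13 for HSD11B1, HSD17B2, HSD17B11 and HSD17B4 and at 0.31 for SRD5A1. In backfat, HSD11B2 spreads more widely than the other 4 genes plotted there.

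The 5-alpha-reductases that had a row, SRD5A1 and SRD5A2, were both higher in backfat. SRD5A1, the form found in many tissues, lies on the minus strand at chr16:75309830-75335438, and its start is 126 bases from that of NSUN2 on the opposite strand. The 200 bases before its start, chr16:75335439-75335638 on the minus strand, are shown with CpGs in capitals because no other member had as many.
SRD5A1: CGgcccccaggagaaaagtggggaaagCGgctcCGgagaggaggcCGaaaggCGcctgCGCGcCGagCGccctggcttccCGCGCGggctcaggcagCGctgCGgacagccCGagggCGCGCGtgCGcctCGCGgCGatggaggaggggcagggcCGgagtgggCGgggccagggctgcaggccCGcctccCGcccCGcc
They hold 27 CpGs, and the 300-base window holds 43, more than 93.4% of all windows. The run also reaches into NSUN2, so it is shared by both genes.

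SRD5A1 was at 4.73, 9.23, 8.46, 6.63 and 6.23 CPM in backfat of boars 65, 67, 69, 71 and 72, and at 1.02, 1.27, 0.701, 1.74 and 0.868 CPM in liver. The lowest backfat library was well above the highest liver library. The means were 7.06 ± 1.80 and 1.12 ± 0.404 CPM (SD, n = 5 each), and the log2 fold change was 2.66 (SE 0.31, adjusted p 1.34e-05 in edgeR's quasi-likelihood test). NSUN2, an RNA methyltransferase, was at 60.0 ± 5.44 CPM in backfat and 61.1 ± 10.9 CPM in liver, with a log2 fold change of -0.03 (SE 0.15, adjusted p 0.900 in the same test), and its values in the tissues overlapped.

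SRD5A2 is the form known from male reproductive tissue and lies at chr3:107840200-107918351 on the plus strand. It was at 0.744, 0.183, 1.35, 1.15 and 1.68 CPM in backfat of boars 65, 67, 69, 71 and 72, from 66, 12, 80, 64 and 98 counts. In liver it was at 0.175, 0.0270, 0, 0 and 0.163 CPM, from 7, 1, 0, 0 and 6 counts. Backfat of boar 67 came close to the highest liver library. The log2 fold change was 3.76 (SE 0.86) with an adjusted p of 0.00256 in edgeR's quasi-likelihood test, and of 0.0532 by glmTreat against the 4-fold threshold. It was 4.40 without liver of boar 65, with the same call.

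Levels per kilobase place the members within each tissue. In FPKM, here TMM-normalized CPM per kilobase of the exon length in the count table, backfat held HSD17B4 at 41.9 ± 8.17 and HSD11B1 at 32.8 ± 13.4, whose ranges overlapped. A gap followed, with HSD17B11 at 2.23 ± 0.29, SRD5A1 at 1.92 ± 0.49, HSD11B2 at 1.01 ± 0.68 and SRD5A2 at 0.386 ± 0.218, each overlapping its neighbour in range, and HSD17B2 last at 0.0284 ± 0.0489. SRD5A1 was thus more abundant than SRD5A2 in backfat, with 2.67 to 36.4 times its FPKM in the 5 libraries and a median of 4.54 times. SRD5A3 was not measured here.

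In liver the order in FPKM was led by HSD11B1 at 301 ± 130, which was above the next member in all 5 libraries. HSD17B11 at 114 ± 45.4 and HSD17B2 at 105 ± 42.5 followed and did not differ beyond their spread, with HSD17B11 the higher in 3 of 5 libraries. HSD17B4 was at 70.8 ± 27.5. The reductases and HSD11B2 were far below, with SRD5A1 at 0.305 ± 0.110, HSD11B2 at 0.153 ± 0.0615 and SRD5A2 at 0.0275 ± 0.0333. With the longest RefSeq transcript as the length, HSD17B11 and HSD17B2 in liver came to 285 and 248 FPKM, so their distance to HSD11B1 depends on the gene model.

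**Figure D3:**
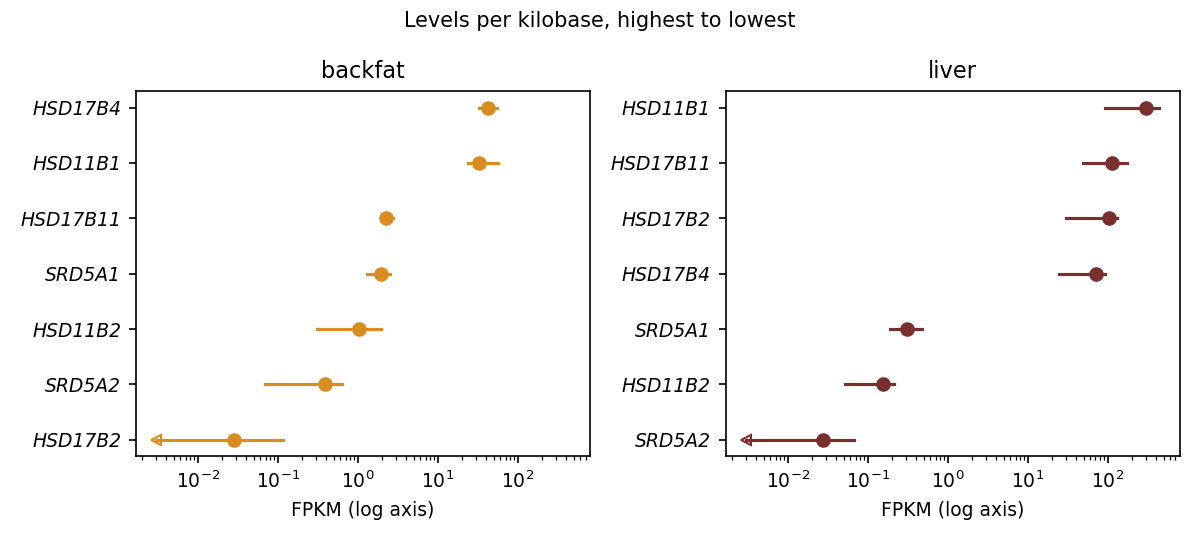
Mean FPKM (points, log axis) and the range over 5 libraries (lines) of the 7 members in backfat and liver, ordered from the highest mean to the lowest; an arrowhead marks a range that reaches 0. HSD17B4 and HSD11B1 lead in backfat at 41.9 and 32.8, and HSD11B1 leads in liver at 301.

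CpG content of the start windows varied among the members. Of those higher in backfat, SRD5A1 had 43 CpGs and HSD11B2 and SRD5A2 had 21 each. Of those higher in liver, HSD17B11 had 16, HSD17B2 5 and HSD11B1 3, and HSD17B4 had 15. These are 7 windows, and no test was made of the relation. The GC box GGGCGG, searched on both strands, was found 6 times in HSD11B2, 3 times in SRD5A1, 2 times in SRD5A2 and 1 time in HSD17B11, and is held by 50.6% of all windows. The TATA box TATAAA, also searched on both strands, was found in HSD11B2 and HSD17B11 and is held by 10.9% of all windows. In HSD11B2 the match lies on the strand opposite to the gene. A match describes the sequence and is not evidence of a bound site.

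Genes next to the called members had values of their own. SDR42E1, a member of the short-chain dehydrogenase family that lies 26845 bases from HSD17B2, was also higher in liver, at 3.02 ± 1.03 CPM in backfat and 27.9 ± 13.4 CPM in liver (log2 fold change -3.21, adjusted p 8.32e-06 in edgeR's quasi-likelihood test). XDH, the xanthine oxidoreductase gene 68708 bases from SRD5A2, was higher in liver at -6.53 (-7.71 without backfat of boar 72), the reverse of SRD5A2, while MEMO1 on the other side was at 0.60. Beside HSD11B2, ZDHHC1 was called as higher in backfat at 2.14. That call was lost by glmTreat (adjusted p 0.851) and without backfat of boar 65 (1.996) or liver of boar 71 (1.81). ATP6V0D1, 923 bases from HSD11B2, was at -0.55. Beside HSD11B1, TRAF3IP3 was at -1.50. G0S2, an inhibitor of fat breakdown 8668 bases from HSD11B1, was at 39.9 ± 59.2 CPM in backfat and 35.5 ± 24.5 CPM in liver, a difference within the spread of the libraries.

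The wider steroid pathway was read from lists of 68 related genes, of which 44 were tested. Of these, 11 passed both thresholds as higher in liver and 4 as higher in backfat, beside 11.2% and 11.1% of all genes tested. The median log2 fold change of the 44 genes was -0.58, against 0.00 for all genes. Of 9 other hydroxysteroid dehydrogenases tested, HSD17B6, which oxidizes androstanediol, was higher in liver at a log2 fold change of -7.02, and HSD17B12, which elongates fatty acids and reduces estrone, was higher in backfat at 2.08, from 66.7 ± 19.7 CPM in liver to 282 ± 104 CPM in backfat. The call of HSD17B12 sits at the fold threshold and was lost by glmTreat (adjusted p 0.845) and without liver of boar 67 (1.88), backfat of boar 71 (1.91) or backfat of boar 72 (1.97).

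Of 13 genes listed as other steroid reductases, some of them dehydrogenases by name, 5 were tested. The listed AKR1C genes, AKR1CL1 and TECR had no identifier, and RDH16 and DHRS11 had no row. In the other lists, HSD3B1, HSD3B2 and the UGT genes had no identifier, so none of these could be read. AKR1D1, the 5-beta-reductase of bile acid and steroid breakdown, was higher in liver at -10.53. It rose from 0.627 ± 0.352 CPM in backfat to 929 ± 546 CPM in liver. It thus moved in the reverse direction to SRD5A1 and SRD5A2. RDH5, a retinol dehydrogenase that also takes steroids, was higher in backfat at 8.92, with 72.9 ± 35.2 CPM there and 0.155 ± 0.107 CPM in liver.

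Of 8 genes of steroid conjugation and sulfate supply, SULT2A1 at -8.84, SULT1E1 at -8.47 and the transporter SLCO2B1 at -3.90 were higher in liver. SULT2A1 conjugates androgens such as dehydroepiandrosterone, and SULT1E1 conjugates estrogens. SULT2B1, which prefers cholesterol and pregnenolone, was higher in backfat at 3.63, at 2.98 ± 0.982 CPM against 0.239 ± 0.124 CPM. Of 6 genes of steroid synthesis, CYB5A at -2.85 and FDX1 at -2.32 were higher in liver, and CYP21A2 was higher in backfat at 2.93, at 0.874 ± 0.647 CPM against 0.112 ± 0.0505 CPM. By glmTreat both FDX1 (adjusted p 0.265) and CYP21A2 (adjusted p 0.126) lost their calls, and FDX1 also did with library size alone (-1.58).

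Of 5 receptors and carriers tested, SERPINA6 passed both thresholds as higher in liver and none passed as higher in backfat. NR3C1, the glucocorticoid receptor, was at 63.2 ± 9.92 CPM in backfat and 35.6 ± 8.95 CPM in liver (log2 fold change 0.83, adjusted p 0.00338 in edgeR's quasi-likelihood test), and NR3C2, the mineralocorticoid receptor that HSD11B2 shields from cortisol in kidney, was at 7.40 ± 2.12 and 1.99 ± 0.426 CPM (1.89, adjusted p 7.08e-05 in the same test). Neither passed the 4-fold threshold, although NR3C2 did without backfat of boar 72 (2.03). SERPINA6, the cortisol-binding globulin of plasma, was higher in liver at -11.66 (-14.75 without backfat of boar 69), and SHBG had no identifier. Of 7 glucocorticoid response genes tested, TAT passed both thresholds as higher in liver at -13.41 (-16.59 without backfat of boar 69) and none passed as higher in backfat, where 11.2% and 11.1% of all genes did. ZBTB16, a glucocorticoid-induced transcription factor chosen here after its values were seen, was at 1.43 and passed as higher in backfat without liver of boar 67 (2.25), without that library and backfat of boar 69 (2.37) and with library size alone (2.21).

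**Figure D4:**
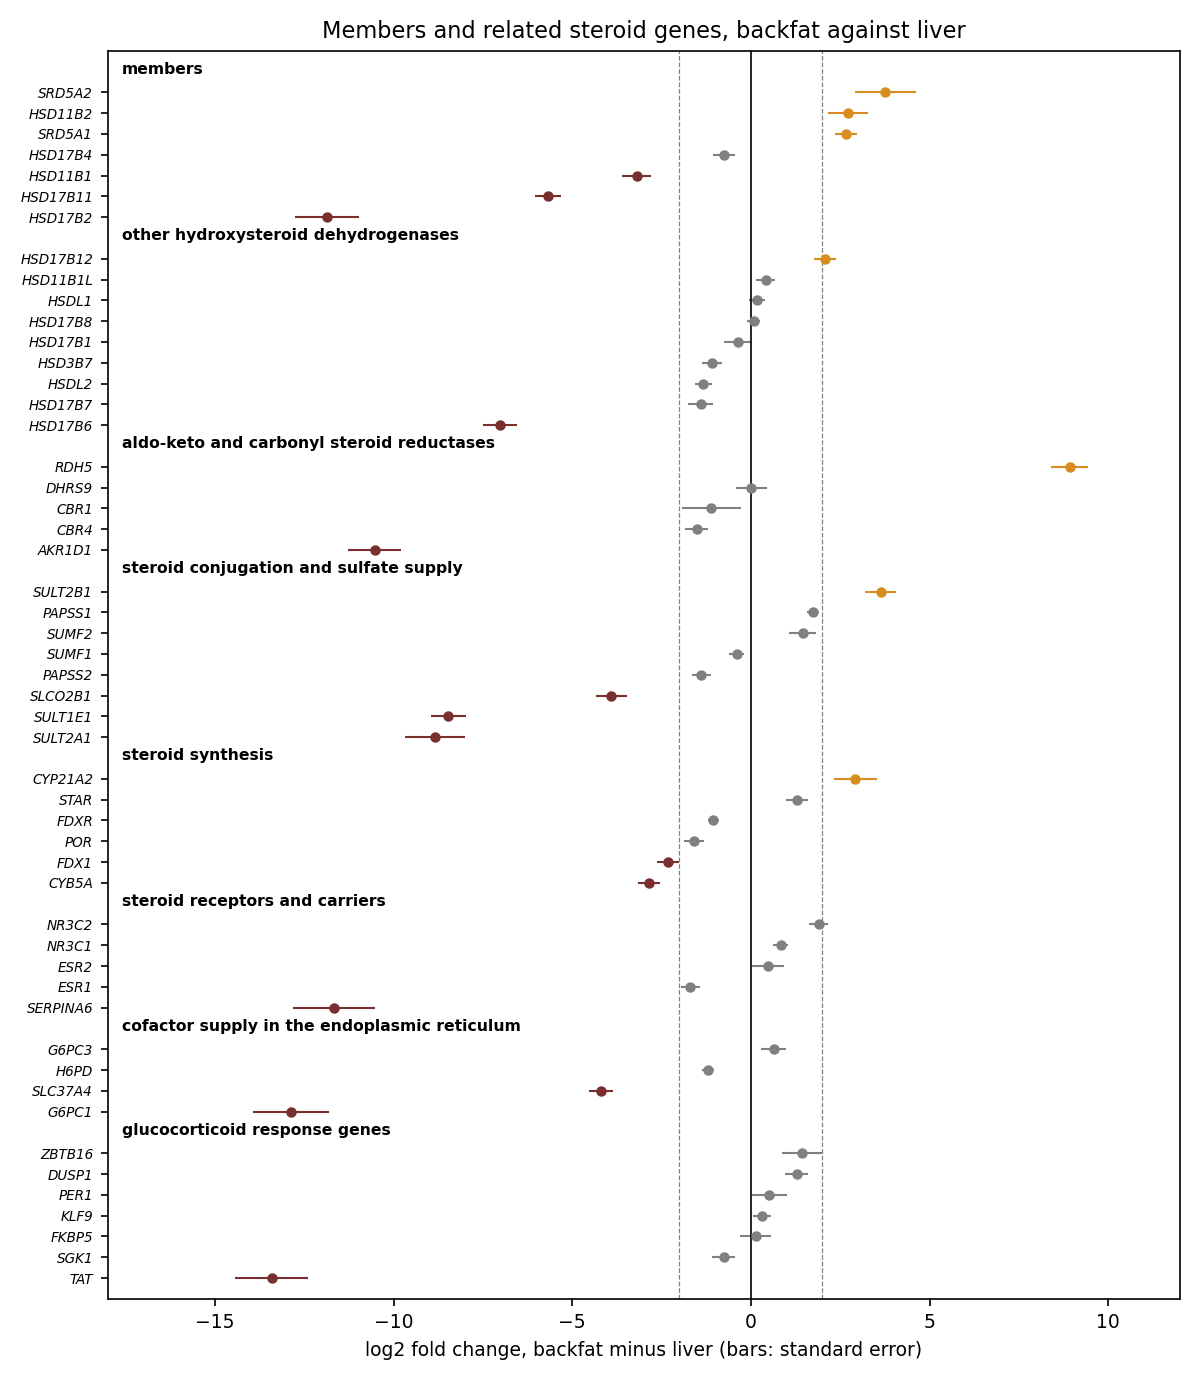
The log2 fold change, backfat minus liver, with its SE for the 7 members and the 44 related genes tested, grouped by list; orange marks genes called as higher in backfat, dark red those called as higher in liver, grey those not called, and dashed lines the 4-fold threshold. Members lie on both sides, from 3.76 for SRD5A2 to -11.86 for HSD17B2.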

How the data were processed

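RNA-seq of 5 backfat and 5 liver samples was analysed. According to the study's methods, the authors checked reads with FastQC, used Trimmomatic for adapters and HISAT2 for alignment to Sscrofa11.1, and obtained counts from featureCounts, and the submitters' processing notes also name Trim Galore, SAMtools and Bismark, the last for bisulfite reads. Per the file headers, counting used featureCounts 2.0.1 and the Ensembl release 99 annotation. The deposited values are raw counts of reads per gene, not normalized, beside the exon length of each gene. Strand use in counting was not given in the sources used here.

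Counts were filtered by filterByExpr, normalized by TMM and tested with edgeR 4.0.16 in R 4.3.3 by its quasi-likelihood functions glmQLFit and glmQLFTest. Tissue was the single factor. The Benjamini-Hochberg adjustment covered all 16275 genes that were tested. The study used DESeq2 with tissue as the factor, and its thresholds of 0.05 and 2 were kept. A positive log2 fold change means higher in backfat. An SE is the size of the log2 fold change divided by the square root of F. Alternatives were DESeq2 1.42.0, limma 3.58.1 (voom), glmTreat, other normalizations and filters, the boar as a block and leaving out libraries. On simulated counts for this comparison (16275 genes, 200 changed by a log2 fold of 3), the edgeR test called 196 of the changed genes and 1 unchanged gene, DESeq2 199 and 8, voom 192 and 1, the block fit 194 and 2, and glmTreat 93 and 0. The changed genes were drawn from those with a mean above 1 CPM, so recovery at lower levels was not tested.

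The members, the related lists and the alternatives were chosen with earlier results of these data known. The genes named are all members, H6PD, NR3C1, NR3C2, SERPINA6, SHBG and HSD17B12, up to 4 called genes of each list with the largest change, and the nearest protein-coding genes of called members. A further gene that this rule names is not reported here and was left out of the lists. Gene positions, transcripts and start windows came from RefSeq on Sscrofa11.1. Boar numbers come from the column names, and the labels' replicate numbers could not be matched to them. Deviations from the tissue means correlated between libraries with the same boar number at 0.238, 0.107, 0.049, 0.165 and 0.0984 (boars 65, 67, 69, 71 and 72). The highest correlation with a library of another boar was 0.0566, 0.0865, 0.131, 0.00213 and 0.0626, so the same boar was higher except for boar 69. The same-boar values were not all over 0.1, and the block was kept as an alternative. The samples are from separate animals within a tissue. Intervals and limits at 0 counts cover counting error only. Figures were made with Python 3.11.15 and matplotlib 3.10.9.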

Additional observations from a re-analysis of the deposited data

Results flagged for a closer look

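For 3 of the 14 groups formed by 7 members and 2 tissues, 1 library lay farther from the others than Dixon's 95% critical value allows for 5 samples. Chance flags about 1 in 20 groups of normally distributed values. That rate need not hold here, since CPM were not logged, some rest on few counts, and the members share libraries. The 3 come from the 2 libraries already described as standing apart. HSD11B1 was at 91.4 CPM in backfat of boar 69, with the next library at 50.8 CPM. HSD17B2 was at 0.320 CPM in the same library, with the next at 0.0360 CPM. HSD17B2 was at 82.3 CPM in liver of boar 67, with the next lowest at 310 CPM. Backfat of boar 69 also had the highest hepatocyte sum of its tissue and liver of boar 67 the lowest of its own. The hepatocyte sum of backfat of boar 69 was 0.492% of the median liver value and was mostly APOA1. The part of hepatocyte RNA in the flagged values was not tested.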

How the results depend on the processing

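The calls of HSD11B1, HSD17B2, HSD17B11 and SRD5A1 and the absence of one for HSD17B4 were the same in every alternative that tested them. By glmTreat against the 4-fold threshold, HSD11B2 (2.72) and SRD5A2 (3.76) lost their calls, which left 1 member, 2 related genes and 1126 of all genes called as higher in backfat. With at least 10 counts in every library, fewer genes were tested, among them 4 members. HSD11B2, HSD17B2 and SRD5A2 were removed by that filter, so their calls were not tested there. Then 1 member, 1 related gene and 871 of all genes were called as higher in backfat, and 6 related and 981 of all genes as higher in liver. With library size alone, which moves the median of all genes by 0.71, 8 related and 2874 of all genes were called as higher in backfat. Without a filter, 2729 of all genes were called as higher in liver. With the replicate block by boar, no member's call changed, and HSD17B4 was at -0.65. The log2 fold changes of the members without 1 library at a time ran from -3.48 to -3.06 for HSD11B1, 2.36 to 2.96 for HSD11B2, -13.74 to -11.56 for HSD17B2, -1.01 to -0.64 for HSD17B4, -5.90 to -5.49 for HSD17B11, 2.52 to 2.84 for SRD5A1 and 3.41 to 4.40 for SRD5A2. Directions turned for neighbours that were not called. G0S2 (-1.39 to 0.46 without 1 library at a time) was at -0.47 by limma-voom, -0.63 with the block, -1.39 without backfat of boar 69, -0.16 without liver of boar 67 and -1.65 without both. ATP6V0D1 was at 0.15 with library size alone. NSUN2 was at 0.66 with library size alone, 0.032 without a filter, and between -0.12 and 0.057 without 1 library at a time. The cause was not tested. Mean FPKM with the longest RefSeq transcript moved to 55.9 for HSD17B4 and 5.60 for HSD17B11 in backfat. A ratio of HSD17B13 to HSD17B11 was planned and could not be run, since HSD17B13 has no row. Depth limits HSD11B2 and SRD5A2 in liver and HSD17B2 in backfat.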

Other observations

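Some values around the members were not given above, and the genes were chosen after their values were seen. Between the tissues FKBP5 was not called, at a log2 fold change of 0.13 (adjusted p 0.814 in edgeR's quasi-likelihood test). FKBP5, a glucocorticoid response gene, was highest in boar 67 in both tissues, at 218 CPM in backfat and 218 CPM in liver. The other boars ran from 60.0 to 154 CPM in backfat and from 55.4 to 99.9 CPM in liver. PER1 of the same list was also highest in boar 67, at 399 CPM in backfat and 391 CPM in liver. Other genes of that list were mixed in boar 67. KLF9 was highest in backfat (116 CPM) but below its median in liver (54.1 CPM). TAT was highest in liver (762 CPM), DUSP1 lowest in liver (125 CPM) and SGK1 lowest in backfat (39.9 CPM). Liver of boar 67 is the library with 44.5% mitochondrial counts. Boar 67 had the lowest HSD11B1 of the liver libraries and the second highest of the backfat libraries. A relation of HSD11B1 to the response genes was not tested.

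CYP17A1, which makes androgens from progestagens, was dropped by filterByExpr, so the main test did not cover it. Its counts summed to 383 in backfat and 1 in liver. It had 94, 3, 216, 3 and 67 counts in backfat of boars 65, 67, 69, 71 and 72 and 1, 0, 0, 0 and 0 counts in liver. The backfat libraries of boars 67 and 71 were thus near 0, while SRD5A2 had 12 and 64 counts in them. HSD17B10 was listed at 0 counts in 9 of 10 libraries. Whether reads could be assigned to that row was not tested, so these counts do not show absence of expression.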
